A study of Caenorhabditis elegans with 16 samples.

Results

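Forms of the transcription factor SKN-1 that differ in their pattern of Asn to Asp substitutions were compared directly in whole *C. elegans*: SKN-1t[DNDD], with 3 substitutions, against SKN-1t[NDNN], with 1. The comparison takes the 4 replicate samples of each strain, 8 of the 16 RNA sequencing samples of the series, and covers all genes in the deposited count table. The letters give the residue at each of the 4 N-linked glycosylation motifs of SKN-1A, in order. The 2 forms carry Asp at opposite positions (motifs 1, 3 and 4 against motif 2), so the number of substitutions and their position cannot be told apart.

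SKN-1 is the nematode relative of mammalian Nrf1 and Nrf2. The isoform SKN-1A passes through the endoplasmic reticulum, where it is glycosylated, and is then retrotranslocated to the cytosol. There the peptide:N-glycanase PNG-1 removes the glycans and turns each glycosylated Asn into Asp, and this sequence editing is needed for SKN-1A to activate proteasome subunit genes. The isoform SKN-1C never enters the endoplasmic reticulum, keeps its Asn residues and is best known for inducing glutathione S-transferases and other detoxification genes. SKN-1t is a truncated form of the protein, so a substitution in it stands for an editing event at that motif.

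Both strains were *unc-119(ed3)* III animals carrying a single-copy transgene, mgTi41 for SKN-1t[DNDD] and mgTi42 for SKN-1t[NDNN], and whole L4 larvae from independently grown populations, given no drug, were used for every sample. Each encodes SKN-1t with HA at its N terminus and GFP at its C terminus and is driven by the *rpl-28* promoter, which is active in all tissues, and the endogenous *skn-1* gene was intact. Each form was represented by 1 transgenic line, so the form of SKN-1t and anything else in which the lines differ, such as the insertion site or background mutations, cannot be told apart. The strain numbers of these lines are exchanged between the sample labels and the strain list of the study, while allele and construct are paired the same way in both. Whole animals were sequenced, so fewer cells of a type and less RNA per cell cannot be told apart. The other groups were SKN-1t[NNNN], with no substitution, and the wild type without a transgene. Their levels are given where they place a result.

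Between 24941670 and 28106736 reads per SKN-1t[DNDD] sample and between 28228441 and 30457636 per SKN-1t[NDNN] sample were counted on genes. Of 19122 genes, 14492 had enough reads to be tested. The test was edgeR's quasi-likelihood test, in which the replicate number was a block, so that each SKN-1t[DNDD] sample was set against the SKN-1t[NDNN] sample of the same number, and p-values were adjusted by the Benjamini-Hochberg method over all genes tested. A gene was called at a difference of more than 2-fold with an adjusted p below 0.01. A second rule of 1.5-fold with an adjusted p below 0.05 was used for gene families. Levels are read counts scaled to sequencing depth in CPM, with factors from the TMM method, and differences are log2 values of SKN-1t[DNDD] minus SKN-1t[NDNN] with their standard error (SE).

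RNA of *skn-1* itself was measured first, with reads of the endogenous gene and of the transgene counted together (WBGene00004804, WBcel235 chromosome IV, 5651039 to 5660384, minus strand, overlapping *csn-5* and *clec-178* on the other strand). It stood at 256, 247, 205 and 243 CPM in SKN-1t[DNDD] animals, against 288, 320, 256 and 265 CPM in SKN-1t[NDNN] animals. All 4 SKN-1t[DNDD] samples were below all 4 SKN-1t[NDNN] samples, though the highest of the former and the lowest of the latter both round to 256 CPM. Over all genes tested 5.02% lay entirely lower. The means of SKN-1t[NNNN] and wild type animals were 302 and 123 CPM. The log2 difference was -0.23 (SE 0.0783), which did not pass in edgeR's quasi-likelihood test (adjusted p = 0.0736, and 0.314 without the block), but did in a single fit of all 16 samples with the block (adjusted p = 0.0365) and by DESeq2 (adjusted p = 0.037). In 24 alternative fits the difference stayed negative.

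By the 2-fold rule, 900 genes (6.21% of those tested) were higher and 61 genes (0.421%) were lower in SKN-1t[DNDD] animals, with SKN-1t[NDNN] animals as the comparison. All 900 and all 61 differed in the same direction in 4 of 4 same-numbered pairs. The test was blocked on these same pairs, so this is no separate evidence. Over all 14492 genes tested, 3631 were higher and 3372 lower in all 4 pairs. The 2 sets of called genes were unlike in how the samples lay. Of the 900 genes, 69 had all SKN-1t[DNDD] samples above all SKN-1t[NDNN] samples, while in the other 831 the strains overlapped. Of the 61 lower genes, 53 did not overlap. Over all genes tested, 3.36% lay entirely higher and 5.02% entirely lower. Without the block, edgeR called 5 higher (0.0345%) and 3 lower genes (0.0207%), with 2311 genes at an unadjusted p below 0.05. The higher genes were F11A5.18, F22E5.7, *lido-5*, Y55F3AM.21 and Y68A4A.13, and the lower ones *asp-12*, *sdz-1* and Y50D4C.3.

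The number of calls also rested on replicate 3. Without its 2 samples 0 genes were called in either direction by edgeR, with 4112 genes at an unadjusted p below 0.05. Without the SKN-1t[NDNN] sample alone 0 genes were called, and without the SKN-1t[DNDD] sample alone 23 higher and 4 lower genes were called. Under the block a sample without its partner adds nothing to the difference between the strains. Fits that leave out 1 sample therefore differ from leaving out the pair only through the filter, the scaling and the estimated spread. They are no separate checks and do not single out a sample. Without replicate 1 or replicate 4 the higher genes numbered 263 and 239, and without replicate 2 there were 890. Leaving out 1 sample of replicate 1 or 4 left 257 (SKN-1t[DNDD] replicate 1), 251 (SKN-1t[NDNN] replicate 1), 221 (SKN-1t[DNDD] replicate 4) and 199 (SKN-1t[NDNN] replicate 4) higher genes. The lower genes numbered 37 without either sample of replicate 2, and 23 and 20 without replicate 4 of SKN-1t[DNDD] and of SKN-1t[NDNN].

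**Figure D1:**
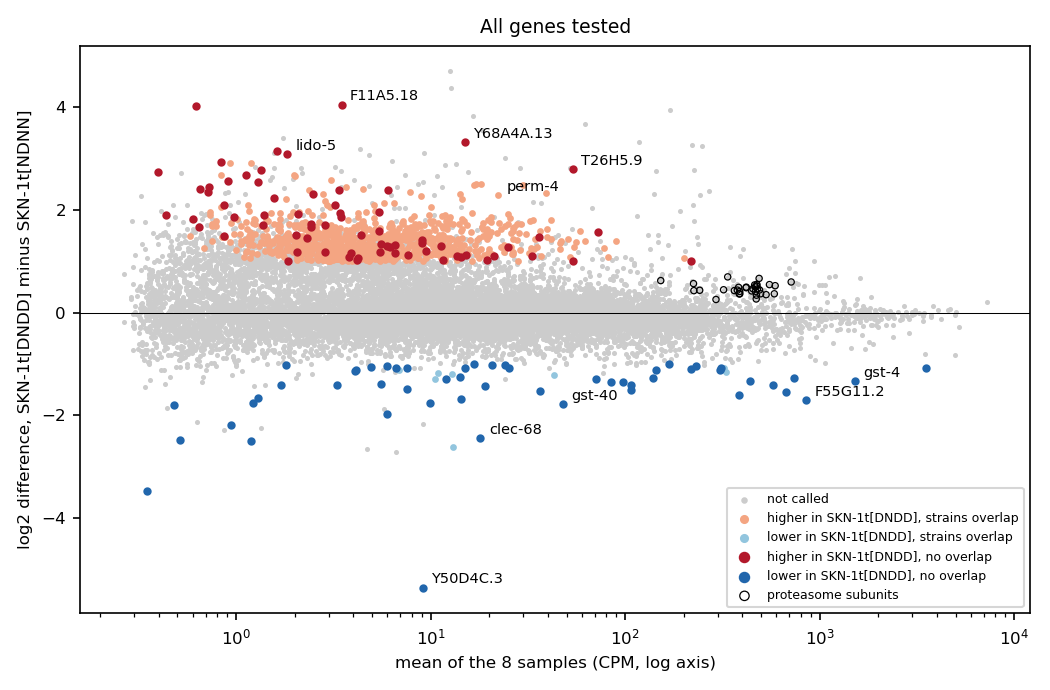
Each point is 1 of the 14492 genes tested, with the mean of the 8 samples in CPM on a log axis and the log2 difference, SKN-1t[DNDD] minus SKN-1t[NDNN], on the vertical axis. Dark red (69 genes) and dark blue (53 genes) mark called genes whose strains do not overlap, pale colours mark called genes whose strains overlap, and open circles mark the 33 proteasome subunit genes, which lie in a narrow band between 0.26 and 0.70.

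In both strains replicates 3 and 4 stood apart from replicates 1 and 2: the first principal component of the 8 samples held 68.9% of the variance, with scores of 13.6, 19.7, -76.8 and -87.5 in SKN-1t[DNDD] and 67.1, 77.6, -14.96 and 1.28 in SKN-1t[NDNN] animals. Replicates 3 and 4 lay on the same side of replicates 1 and 2 in either strain, and each SKN-1t[DNDD] sample lay on that same side of its numbered partner. Of the 900 higher genes, 855 (95.0%) were also higher in replicates 3 and 4 than in replicates 1 and 2 within both strains, against 35.9% of all genes tested. Their median log2 difference between these replicate sets was 1.5 in SKN-1t[DNDD] and 1.46 in SKN-1t[NDNN] animals, and it was 2.05 in SKN-1t[NNNN] and 1.06 in wild type animals. What set the replicates apart is not given in the sources used here and was not tested.

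Several of the genes with the largest differences were nearly silent in one of the strains. F11A5.18 (WBGene00045511, chromosome V, 16202918 to 16204862) had 8.36, 8.56, 4.89 and 4.57 CPM in SKN-1t[DNDD] animals, against 0.371, 0.354, 0.415 and 0.399 CPM in SKN-1t[NDNN] animals. The strains were far apart, and SKN-1t[NNNN] and wild type animals were lower still, with means of 0.0835 and 0.0516 CPM. Its log2 difference of 4.06 (SE 0.237) was the largest among higher genes without overlap at 1 CPM or more (edgeR adjusted p = 0.000774, and 0.00219 without the block).

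A pair of genes on the X chromosome followed the same order of strains. The gene *lido-5* (17109162 to 17110655) had 4.24, 3.86, 2.73 and 2.34 CPM in SKN-1t[DNDD] animals, against 0.304, 0.386, 0.381 and 0.432 CPM in SKN-1t[NDNN] animals, a log2 difference of 3.10 (SE 0.253, edgeR adjusted p = 0.00147). C10A4.7 (7413611 to 7415520) had 3.4, 3.96, 2.61 and 1.68 CPM, against 0.337, 0.161, 0.277 and 0.499 CPM, a log2 difference of 3.15 (SE 0.409, adjusted p = 0.0046 by the same test). Both were at most 0.127 CPM on average in SKN-1t[NNNN] and wild type animals, so their SKN-1t[NDNN] level, though low, was above that of either.

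Y68A4A.13 (chromosome V, 17207208 to 17208145) did not follow that order. It had 20.9, 31.6, 32.6 and 23.8 CPM in SKN-1t[DNDD] animals, against 3.54, 2.19, 3.18 and 2.06 CPM in SKN-1t[NDNN] animals, a log2 difference of 3.33 (SE 0.216, edgeR adjusted p = 0.001, and 0.00219 without the block). The wild type mean of 3.54 CPM was close to the SKN-1t[NDNN] mean of 2.74 CPM, so the gene was high in SKN-1t[DNDD] alone. The adjacent genes T26H5.4, T26H5.9 and T26H5.10 (chromosome V, with starts from 15443330 to 15447528) were also among the 10 leading genes. Of these T26H5.9 was at 45.4, 74.1, 164 and 95.9 CPM in SKN-1t[DNDD] animals, against 16.53, 11.97, 18.1 and 6.55 CPM in SKN-1t[NDNN] animals, with a log2 difference of 2.80 (SE 0.386, edgeR adjusted p = 0.00532). T26H5.4 differed by 2.79, T26H5.10 by 2.38 and F22E5.7, elsewhere in the genome, by 2.69.

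The invertebrate-type lysozyme *ilys-3* and the thaumatin-like gene *thn-2* completed the 10 leading higher genes, with log2 differences of 2.54 and 2.38. In *thn-2* the SKN-1t[DNDD] samples had 5.22, 3.42, 13.3 and 18.4 CPM, against 1.25, 0.451, 2.87 and 3.39 CPM in SKN-1t[NDNN] samples. Here the wild type was the highest group, at 17.3 CPM, as it was for *ilys-3* at 2.76 CPM, so SKN-1t[DNDD] animals were nearer to the wild type than SKN-1t[NDNN] animals were.

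Y50D4C.3 (WBGene00021748, chromosome V, 939391 to 945244, minus strand) was the leading lower gene. It had 0.53, 0.169, 0.411 and 0.625 CPM in SKN-1t[DNDD] animals, against 19.7, 17.5, 16.6 and 17.6 CPM in SKN-1t[NDNN] animals. The means of SKN-1t[NNNN] and wild type animals, 17.4 and 19.3 CPM, were near that of SKN-1t[NDNN], so the low level was found in the SKN-1t[DNDD] line only among the 4 groups. The log2 difference was -5.36 (SE 0.267, edgeR adjusted p = 0.000614, and 0.00219 without the block), and this was the only lower gene called when the 2-fold cutoff was part of the test (glmTreat), where the only higher gene was *sip-1*.

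The other 9 leading lower genes followed one order of strains. Each of them was lowest in SKN-1t[DNDD], intermediate in SKN-1t[NDNN] and highest in SKN-1t[NNNN] among the 3 transgenic strains. The C-type lectin-like gene *clec-68* had 9.04, 6.36, 3.88 and 3.82 CPM in SKN-1t[DNDD] animals, against 30.8, 33.5, 30.5 and 26.4 CPM in SKN-1t[NDNN] animals, with 51.8 CPM on average in SKN-1t[NNNN] and 0.136 CPM in wild type animals (log2 difference -2.45, SE 0.202, edgeR adjusted p = 0.00149). F55G11.2 had 596, 468, 282 and 298 CPM, against 1353, 1447, 1142 and 1207 CPM, and a log2 difference of -1.70 (SE 0.147, adjusted p = 0.0017 by the same test). Y75B12A.2, B0462.4, *gst-40*, *clec-2*, T28C12.2, *nspe-7* and C30F2.4 differed by -2.49 to -1.67. Of all 61 lower genes, 55 (90.2%) followed this order of the 3 strain means, against 25.5% of all genes tested. That SKN-1t[DNDD] lay below SKN-1t[NDNN] was fixed by the choice of these genes, so these shares cannot be compared directly. In SKN-1t[DNDD] animals 46 of the 61 were still above the wild type mean, as were 53.0% of all genes tested.

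**Figure D2:**
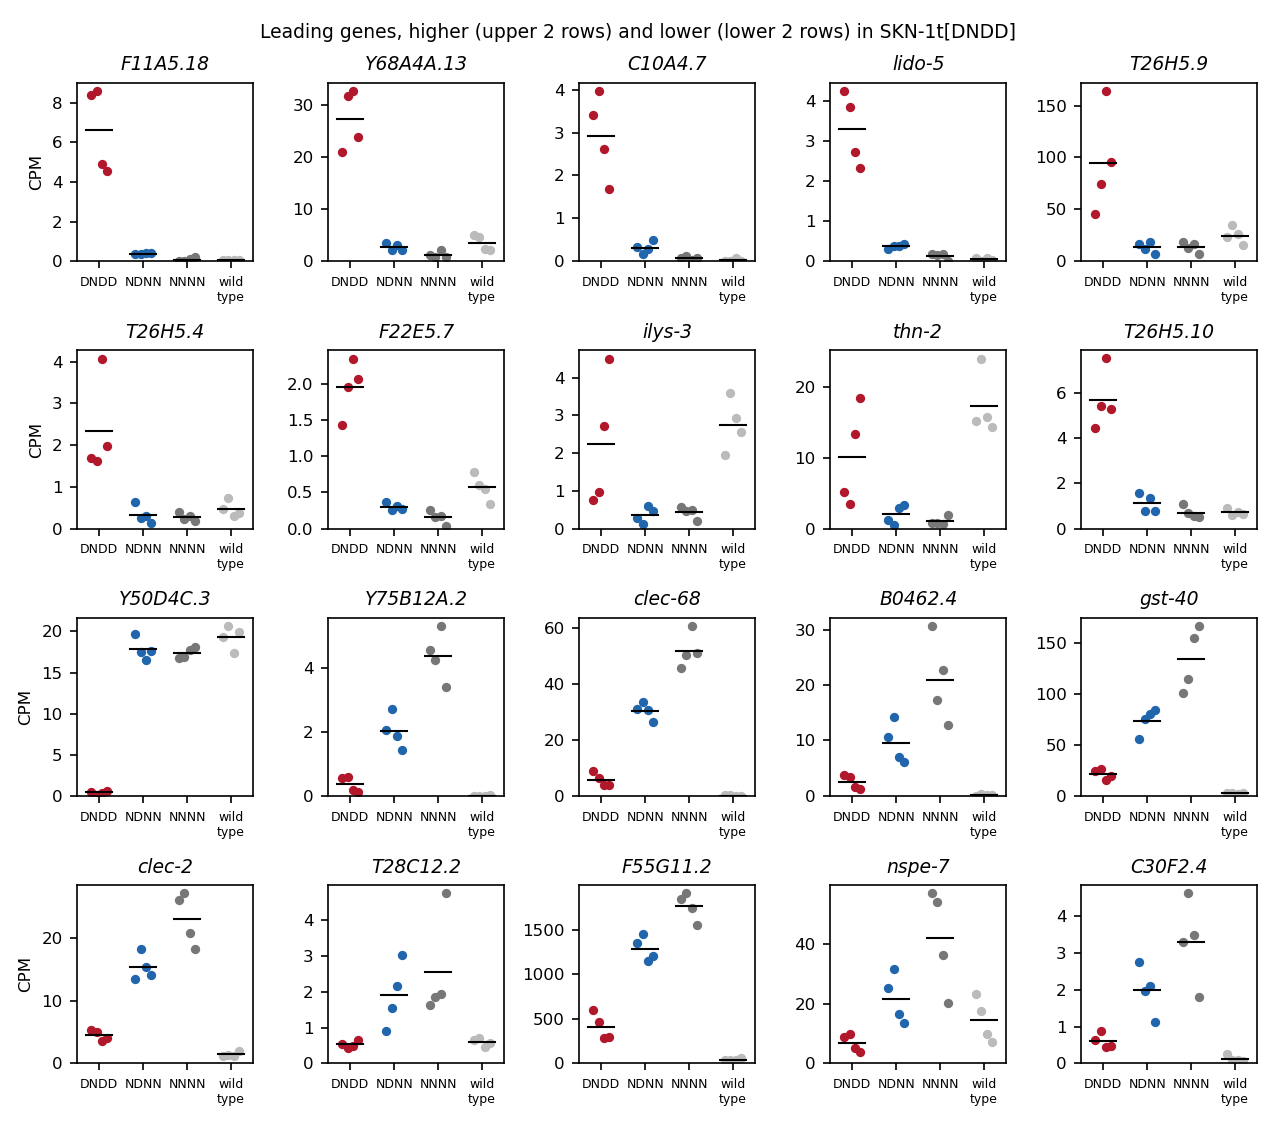
Levels in CPM of the 10 leading higher genes and the 10 leading lower genes without overlap, one panel a gene, with 1 point a sample and a bar at the mean of 4 samples. SKN-1t[DNDD] stands left of SKN-1t[NDNN], followed by SKN-1t[NNNN] and the wild type. Y50D4C.3 is low in SKN-1t[DNDD] only. *clec-68*, *gst-40* and F55G11.2 are highest in SKN-1t[NNNN], intermediate in SKN-1t[NDNN] and lowest in SKN-1t[DNDD] among the transgenic strains, and are near the baseline in the wild type.

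The proteasome is the protease that degrades ubiquitin-marked proteins. Its 20S core is a barrel of alpha (*pas*) and beta (*pbs*) subunits, and its 19S cap holds a ring of ATPases (*rpt*) and further subunits (*rpn*, *dss-1*) that bind, deubiquitinate and feed in substrates. All 33 subunit genes had a positive log2 difference, and 32 of them rose at an adjusted p below 0.05 in edgeR's quasi-likelihood test, against 17.7% of all genes tested that were higher and 8.43% that were lower at that p. The increase was small and even. The log2 differences ran from 0.26 to 0.70 with a median of 0.45, beside 0.0153 over all genes tested, and 0 subunits passed the 2-fold rule. By the 1.5-fold rule 4 passed, against 14.6% of all genes that were higher and 2.7% that were lower by it.

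The subunits past 1.5-fold were *pbs-2*, *pas-6*, *pas-5* and *dss-1*. The beta subunit gene *pbs-2* had 488, 448, 350 and 379 CPM in SKN-1t[DNDD] animals, against 272, 264, 227.9 and 267 CPM in SKN-1t[NDNN] animals. The lowest SKN-1t[DNDD] sample was above the highest SKN-1t[NDNN] sample, as it was for 27 of the 33 subunits. The log2 difference of *pbs-2* was 0.70 (SE 0.0751, edgeR adjusted p = 0.0028, and 0.067 without the block). The alpha subunit gene *pas-6* differed by 0.67 (SE 0.0715), *pas-5* by 0.60 (SE 0.0971), and *dss-1*, the ortholog of the small 19S subunit SEM1, by 0.63 (SE 0.0773).

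The other subunits passed at an adjusted p below 0.05 without reaching 1.5-fold, with the exception of *rpn-12*. They were *pas-1*, *pas-2*, *pas-3*, *pas-4*, *pas-7*, *pbs-1*, *pbs-3*, *pbs-4*, *pbs-5*, *pbs-6* and *pbs-7* of the core, all 6 ATPases *rpt-1* to *rpt-6*, and *rpn-1*, *rpn-2*, *rpn-3*, *rpn-5*, *rpn-6.1*, *rpn-7*, *rpn-8*, *rpn-9*, *rpn-10*, *rpn-11* and *rpn-13*. The lid subunit gene *rpn-12* had 366, 336, 309 and 264 CPM in SKN-1t[DNDD] animals, against 289, 260, 256 and 266 CPM in SKN-1t[NDNN] animals. These samples overlapped, and the log2 difference of 0.26 (SE 0.0803) had an edgeR adjusted p of 0.0591. The core had a median of 0.51 over 14 genes, the ATPases 0.43 over 6 and the other 19S subunits 0.43 over 13.

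Summed over the 33 subunits, the level was 18659, 17490, 14472 and 14409 CPM in SKN-1t[DNDD] animals, against 12555, 12103, 10941 and 11762 CPM in SKN-1t[NDNN] animals. Here replicates 3 and 4 were below replicates 1 and 2 in both strains, the opposite of 855 of the 900 higher genes, and within each strain all 33 subunits were lower on average in replicates 3 and 4. The median difference between the strains was 0.579, 0.516, 0.390 and 0.289 in the pairs numbered 1 to 4, and it was positive for all 33 subunits in pairs 1 to 3 and for 32 in pair 4. Without the block 0 subunits passed in edgeR (adjusted p between 0.061 and 0.312), while the median difference was 0.45. A fit of all 16 samples without the block had 17 subunits at an adjusted p below 0.05, 4 of them past 1.5-fold. Without replicate 3, 14 subunits passed (12 and 16 without its SKN-1t[DNDD] or SKN-1t[NDNN] sample) at an adjusted p below 0.05, and in all 24 alternative fits all 33 differences were positive.

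**Figure D3:**
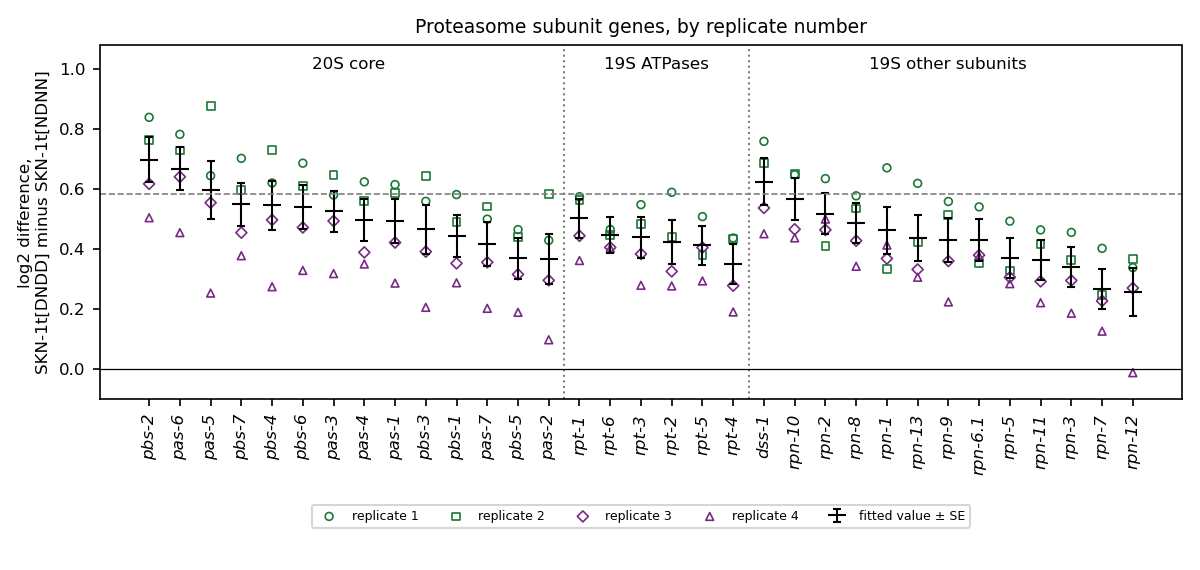
Log2 difference, SKN-1t[DNDD] minus SKN-1t[NDNN], of each of the 33 proteasome subunit genes on the vertical axis. Black bars give the fitted value ± SE, green symbols the pairs of replicates 1 and 2, purple symbols the pairs of replicates 3 and 4, and the dashed line the 1.5-fold cutoff. Each fitted value is above 0, and the purple symbols lie mostly below the green ones.

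The 4 groups stood in one order for the whole complex. In all 33 subunits the mean was highest in SKN-1t[DNDD], then in SKN-1t[NDNN], then in the wild type and lowest in SKN-1t[NNNN]. Every SKN-1t[NDNN] sample was above every wild type sample in all 33, against 2354 of all 14492 genes tested. On the CPM scale the SKN-1t[NDNN] mean lay 57.8% of the way (median over subunits, range 41.9% to 73.2%) between the SKN-1t[NNNN] and the SKN-1t[DNDD] mean.

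Genes that serve the proteasome were also higher in SKN-1t[DNDD] animals. Among 10 assembly factors and cofactors 8 rose at an adjusted p below 0.05, 3 of them past 1.5-fold, with a median of 0.42. Over all genes tested 17.7% were higher at that p and 14.6% by the 1.5-fold rule. The protease gene *ddi-1*, whose product cleaves SKN-1A, had 116, 111, 102 and 101 CPM in SKN-1t[DNDD] animals, against 69.4, 67.9, 63.1 and 62.7 CPM in SKN-1t[NDNN] animals, a log2 difference of 0.72 (SE 0.0635, edgeR adjusted p = 0.00175, and 0.0125 without the block). Y57E12AL.6 differed by 0.66 and the deubiquitinase *usp-14* by 0.63. The gene of the peptide:N-glycanase PNG-1 itself was the only one of the 10 with a negative value, -0.17.

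The AAA ATPase p97, encoded by *cdc-48* genes, extracts proteins from the endoplasmic reticulum and hands them to the proteasome. The list held 18 genes for p97, its cofactors and the degradation machinery of the endoplasmic reticulum, with a median of 0.25. Of these 8 rose at an adjusted p below 0.05, against 17.7% of all genes tested. The 3 past 1.5-fold were near the share of all genes tested, 14.6%. The 8 were the cofactor genes named next, *ufd-3*, *ubxn-6* and 1 of the p97 genes. The UBX-domain gene *ubxn-1* had 133, 125, 118 and 125 CPM in SKN-1t[DNDD] animals, against 75.1, 71.0, 65.2 and 65.1 CPM in SKN-1t[NDNN] animals. The replicates were tight in both strains, and its log2 difference of 0.88 (SE 0.0692) passed with and without the block (edgeR adjusted p = 0.00142 and 0.00849). Then came *ubxn-2* at 0.66, *npl-4.2* at 0.65, *ufd-1* at 0.57, *npl-4.1* at 0.54 and *cdc-48.1* at 0.36, while the ubiquitin ligase components *sel-1* and *sel-11* had -0.16 and -0.10 and did not pass.

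Of 24 genes for ubiquitin and its conjugating enzymes 2 were higher by the 1.5-fold rule, beside 14.6% of all genes tested. The median was 0.099. The conjugating enzyme gene *ubc-18* had 256, 217, 199 and 182 CPM in SKN-1t[DNDD] animals, against 141, 129, 123 and 122 CPM in SKN-1t[NDNN] animals (log2 difference 0.73, SE 0.0744, edgeR adjusted p = 0.00243), and *ubc-24* differed by 1.40 with overlapping samples. In a set of 9 genes that lie in operons with proteasome genes, which the study picked on these same samples and which is therefore no independent evidence, 4 passed, among them *mdt-6* at 0.70, *rpoa-12* at 0.64 and *arp-6* at 0.62. Of 17 *skr* and cullin genes 1 passed, *skr-2* at 0.68, whose reads may be shared with its close copy *skr-1*. F-box, MATH and BTB genes, many of which encode substrate adaptors of ubiquitin ligases, had 43 of 177 higher and 1 lower by the 1.5-fold rule with a median of 0.22, where 14.6% of all genes tested were higher. Without replicate 3 there were 13 higher and 2 lower, in replicates 1 and 2 alone 2 and 0, and without the block 0 and 0. The extremes were *math-48* at 1.90, *math-37* at 1.82, *fbxa-158* at 1.76 and *math-41* at -0.91, and close relatives in this family may share reads.

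Glutathione S-transferases, which join glutathione to reactive compounds, moved the other way. Of 45 genes tested 17 fell and 0 rose by the 1.5-fold rule, 9 fell by the 2-fold rule, and the median was -0.49. Over all genes tested 2.7% were lower and 14.6% higher by the 1.5-fold rule, and 0.421% were lower by the 2-fold rule. Without replicate 3, replicate 4 or the block 10, 11 and 4 fell by the 1.5-fold rule. The largest differences were in *gst-34* at -2.62, *gst-37* at -2.48 and *gst-40* at -1.77. The gene *gst-40* (chromosome IV, 760502 to 762419) had 24.97, 26.1, 15.7 and 19.6 CPM in SKN-1t[DNDD] animals, against 56.2, 75.3, 80.7 and 84.6 CPM in SKN-1t[NDNN] animals, and an edgeR adjusted p of 0.00301. The strains did not overlap, and SKN-1t[NNNN] was higher again at 135 CPM, with 2.78 CPM in the wild type. *gst-40* overlaps *col-103* on the opposite strand.

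The gene *gst-4*, widely used as a reporter of SKN-1 activity and named here for that reason, had 1298, 1306, 639 and 433 CPM in SKN-1t[DNDD] animals, against 2233, 2370, 2007 and 1820 CPM in SKN-1t[NDNN] animals. No sample of one strain reached the other, and replicates 3 and 4 were the lowest of the SKN-1t[DNDD] samples. The log2 difference was -1.32 (SE 0.219, edgeR adjusted p = 0.00872, and 0.211 without the block). Replicates 1 and 2 alone gave -0.82, and replicates 3 and 4 gave -1.84. Summed over the 45 genes the level was 5898, 5863, 3735 and 3139 CPM in SKN-1t[DNDD] animals, against 8539, 9210, 7620 and 7626 CPM in SKN-1t[NDNN] animals. Part of the family still stood above the wild type in both strains. In 21 of the 45 genes all SKN-1t[DNDD] samples, and in 29 all SKN-1t[NDNN] samples, were above all wild type samples. Over all 14492 genes tested this held for 1859 genes in SKN-1t[DNDD] and 2354 genes in SKN-1t[NDNN].

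Glutathione synthesis and antioxidant genes gave 3 lower and 0 higher of 19 by the 1.5-fold rule, with a median of -0.0010. Over all genes tested 2.7% were lower and 14.6% higher by that rule. Glutamate-cysteine ligase, the rate-limiting enzyme of glutathione synthesis, is encoded by *gcs-1*, which had 334, 310, 198 and 218 CPM in SKN-1t[DNDD] animals, against 540, 614, 395 and 444 CPM in SKN-1t[NDNN] animals (log2 difference -0.91, SE 0.0791, edgeR adjusted p = 0.00174, and 0.123 without the block). The samples of the strains did not overlap. The methionine sulfoxide reductase gene *msra-1* differed by -0.80 and the peroxiredoxin gene *prdx-2* by -0.72.

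In other detoxification families the number of higher genes was near or below the 14.6% of all genes tested that were higher by the 1.5-fold rule, beside 2.7% that were lower. UDP-glucuronosyltransferases, which attach sugars to small molecules, had 5 higher and 9 lower of 62 with a median of -0.18, from *ugt-30* at 1.07, *ugt-41* at 1.00 and *ugt-51* at 0.92 to *ugt-38* at -2.20, *ugt-13* at -1.03 and *ugt-65* at -0.95. Cytochrome P450 genes had 6 higher and 1 lower of 56, with *cyp-37B1* at 2.15, *cyp-31A2* at 1.19, *cyp-31A5* at 1.05 and *cyp-36A1* at -0.59. Short-chain dehydrogenases had 3 higher and 4 lower of 29, ABC transporters 7 and 4 of 46 and *aat* amino acid transporters 0 and 2 of 9, where *aat-2* differed by -1.16 and *aat-7* by -0.84. Without the block 1 lower UDP-glucuronosyltransferase passed and 0 genes of the cytochrome P450, dehydrogenase and ABC transporter families. Among 12 regulators of SKN-1 1 was higher, *skr-2*, and 1 lower, *wdr-23*, whose product directs SKN-1 to degradation. *wdr-23* had 157, 160, 108 and 119 CPM in SKN-1t[DNDD] animals, against 213, 269, 206 and 217 CPM in SKN-1t[NDNN] animals (log2 difference -0.73, SE 0.0976, edgeR adjusted p = 0.0049), and 60.4 CPM in the wild type.

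Germline genes were higher in SKN-1t[DNDD] animals and also differed widely between replicates. By the 1.5-fold rule 16 of 17 germline markers, 11 of 14 sperm markers, 14 of 18 oocyte and eggshell markers and 29 of 29 major sperm protein genes were higher in SKN-1t[DNDD] animals, with medians of 1.09, 0.98, 1.62 and 1.73. Over all genes tested 14.6% were higher by that rule. The mean fell from SKN-1t[DNDD] over SKN-1t[NDNN] to SKN-1t[NNNN] in 0, 3, 4 and 1 members of these lists, in turn, against 22.5% of all genes. None of these markers was lower by the 1.5-fold rule. None of the marker genes tested was at 0 in all 4 samples of either strain. Without the block 0 members of these lists passed in edgeR, and without replicate 3 the counts were 5, 4, 11 and 28 in the same order.

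The eggshell gene *perm-4* had 8.89, 6.26, 40.04 and 93.9 CPM in SKN-1t[DNDD] animals, against 1.65, 1.45, 9.97 and 15.99 CPM in SKN-1t[NDNN] animals. Replicates 3 and 4 were several-fold above replicates 1 and 2 in both strains, so the strains overlapped although each SKN-1t[DNDD] sample was above its partner. The log2 difference was 2.30 (SE 0.125), with an edgeR adjusted p of 0.000614 that became 0.314 without the block. Of the oocyte markers *puf-5*, an RNA-binding protein of oocytes, differed by 2.36 and *perm-2* by 2.31. The germline genes *mex-5*, *glh-2* and *gld-1* differed by 1.94, 1.76 and 1.43, and the sperm-specific genes *ssp-10*, *ssp-31* and *ssp-16* by 1.57, 1.46 and 1.43.

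Major sperm proteins form the cytoskeleton of nematode sperm, and their genes are near-identical copies whose reads cannot be assigned to one gene with certainty. The gene *msp-76* had 18.2, 11.199, 61.9 and 67.6 CPM in SKN-1t[DNDD] animals, against 4.22, 3.67, 14.9 and 18.7 CPM in SKN-1t[NDNN] animals, a log2 difference of 1.93 (SE 0.106, edgeR adjusted p = 0.000614), and *msp-65* and *msp-55* differed by 2.07 and 1.97. Summed over 29 genes the level was 313, 192, 989 and 1055 CPM, against 82.1, 70.1, 297 and 322 CPM. The difference was nearly the same in both replicate sets, with medians of 1.68 (replicates 1 and 2) and 1.76 (replicates 3 and 4). Summed germline markers ranged between 173 and 1354 CPM in SKN-1t[DNDD] and between 131 and 525 CPM in SKN-1t[NDNN] animals, summed sperm markers between 47.1 and 193 CPM and between 30.4 and 87.7 CPM, and summed oocyte and eggshell markers between 63.8 and 525 CPM and between 42.9 and 133 CPM. Summed germline markers were at 217, 169, 329 and 1002 CPM in SKN-1t[NNNN] and at 102, 97.6, 263 and 258 CPM in wild type animals. Major sperm protein genes summed to 58.5, 61.2, 184 and 656 CPM in SKN-1t[NNNN] and to 92.6, 124, 401 and 344 CPM in wild type animals. The part of germline content in the other differences was not tested.

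**Figure D4:**
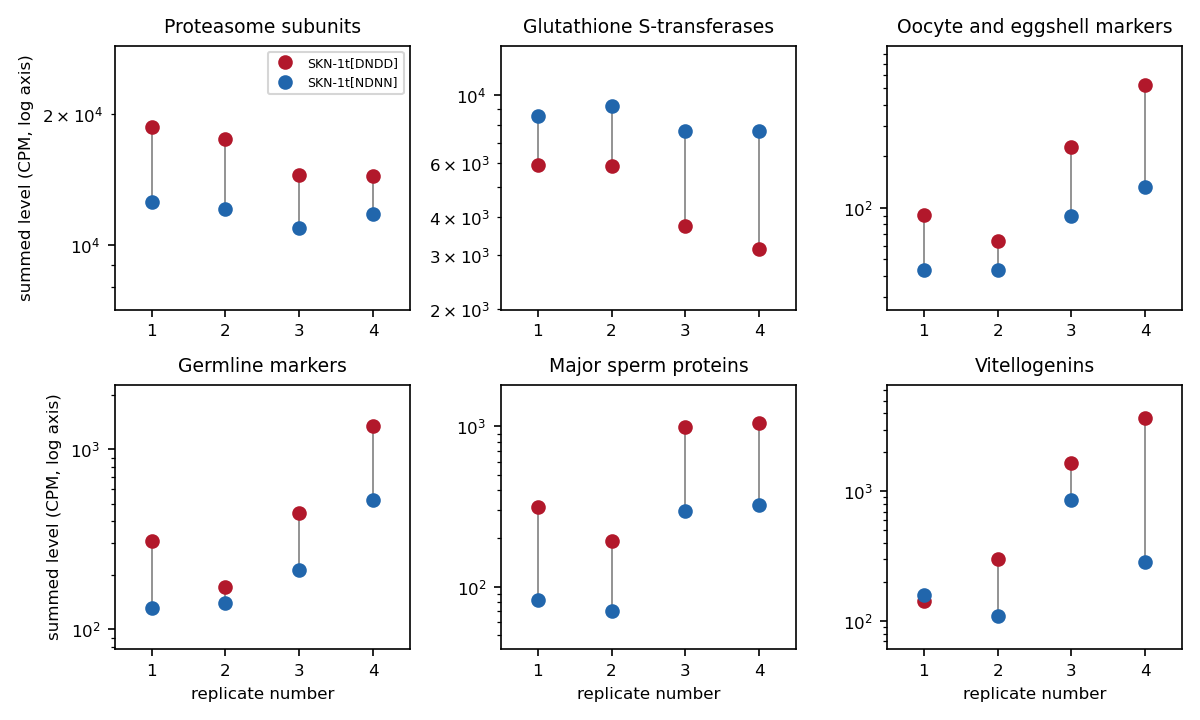
Summed level in CPM on a log axis of 6 gene lists, by replicate number, in SKN-1t[DNDD] (red) and SKN-1t[NDNN] (blue) animals, with a line joining samples of the same number. Proteasome subunits are higher and glutathione S-transferases lower in SKN-1t[DNDD] in 4 of 4 pairs with no overlap, while germline, oocyte and sperm genes are higher in 4 of 4 pairs with overlap, and vitellogenins are not higher in the first pair.

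Vitellogenins, the yolk proteins made by the adult intestine, had a median of 1.30 over 5 genes, and 0 passed. The yolk gene *vit-6* had 111, 206, 1026 and 2311 CPM in SKN-1t[DNDD] animals, against 120, 86.6, 575 and 226 CPM in SKN-1t[NDNN] animals (log2 difference 1.30, SE 0.542, edgeR adjusted p = 0.123), and 7347 CPM on average in the wild type. By the 1.5-fold rule 14.6% of all genes tested were higher and 2.7% lower. Of 118 cuticle collagen genes of the *col* class 8 were higher and 5 lower by it, with a median of 0.49. The largest of these was *col-7*, a collagen of the adult cuticle, at 0, 3.72, 47.1 and 44.1 CPM in SKN-1t[DNDD] animals, against 0, 0.0322, 6.09 and 0.133 CPM in SKN-1t[NDNN] animals (log2 difference 4.7, SE 0.941, edgeR adjusted p = 0.0215, and 0.32 without the block). The samples overlapped, and *col-62* and *col-137* differed by 4.38 and 3.56, although in the first pair their differences were -1.73 and -0.73. On the lower side were *col-149* at -1.07, *col-98* at -0.72 and *col-103* at -0.65. Molting genes summed to 5499, 4740, 2519 and 2368 CPM in SKN-1t[DNDD] animals, against 5484, 6416, 4170 and 5419 CPM in SKN-1t[NDNN] animals, so unlike the germline lists they were not higher in replicates 3 and 4. Furrow and body shape collagens gave 0 calls of 20, molting genes 2 higher and 4 lower of 38, with *nas-22* at 2.33 and *fbn-1* at -1.03, and hedgehog- and patched-related genes 3 higher and 5 lower of 62.

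Few markers of other tissues passed. By the 1.5-fold rule 0 of 9 body wall muscle, 0 of 10 pharynx and 0 of 12 neuron markers passed, and 1 of 9 hypodermis markers, *grd-10* at -0.75, was lower. The pharynx markers nevertheless had a median of 0.68, with *phat-4* at 0.96 (SE 0.381, edgeR adjusted p = 0.11). Of 10 intestine markers 2 were higher and 1 lower. The gut protease gene *cpr-1* had 98.1, 73.9, 107 and 144 CPM in SKN-1t[DNDD] animals, against 23.8, 25.4, 34.1 and 71.3 CPM in SKN-1t[NDNN] animals (log2 difference 1.57, SE 0.159, edgeR adjusted p = 0.00243), with no overlap. The intestinal transcription factor gene *elt-7* differed by 0.62 and the peptide transporter gene *pept-1* by -0.67, so markers of one tissue moved in both directions.

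The *pals* genes take part in the response to intracellular pathogens such as microsporidia and viruses. Of 24 tested, 13 were higher and 0 lower by the 1.5-fold rule and 5 were higher by the 2-fold rule. Over all genes tested these shares were 14.6%, 2.7% and 6.21%. The median was 0.91, and 12 lay entirely higher in SKN-1t[DNDD], against 3.36% of all genes. Summed levels were 83.3, 97.3, 111 and 79.9 CPM in SKN-1t[DNDD] and 71.8, 66.2, 78.2 and 56.4 CPM in SKN-1t[NDNN] animals. Wild type animals had 102, 106, 123 and 102 CPM. The SKN-1t[DNDD] mean was above the wild type mean in 17 of the 24 genes, against 53.0% of all genes. The gene *pals-26* had 6.09, 6.43, 5.57 and 3.72 CPM in SKN-1t[DNDD] animals, against 1.69, 0.805, 1.73 and 1.53 CPM in SKN-1t[NDNN] animals (log2 difference 1.94, SE 0.272, edgeR adjusted p = 0.00548, and 0.0454 without the block). Unlike the germline genes it showed no rise in replicates 3 and 4. The largest value was that of *pals-14* at 2.36, and *pals-5*, the usual reporter of this response, differed by 1.78 at under 1 CPM. Without the block 1 *pals* gene passed, without replicate 2, 3 or 4 there were 7, 5 and 6, and in replicates 1 and 2 alone 2 passed with a median of 0.61.

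C-type lectin-like genes, beside 14.6% of all genes tested that were higher and 2.7% that were lower, had 24 higher and 12 lower of 105 by the 1.5-fold rule with a median of 0.019. The higher members *clec-87*, *clec-229* and *clec-88*, at 2.50, 2.30 and 1.79, overlapped between the strains, while the lower members *clec-68*, *clec-2* and *clec-74*, at -2.45, -1.77 and -1.48, did not. Without the block 0 higher and 2 lower lectin genes passed. Lysozymes and other antimicrobial genes had 6 higher and 3 lower of 40, a share of higher genes like that of all genes and 0 without the block, with *ilys-2* at 2.4, *lys-3* at 1.17, *spp-12* at -0.89, *spp-19* at -0.82 and *spp-4* at -0.78. Among fatty acid desaturases 1 of 7 passed, *fat-5*, which acts on palmitate. It had 18.7, 30.3, 76.1 and 62.03 CPM in SKN-1t[DNDD] animals, against 11.201, 12.07, 16.9 and 10.3 CPM in SKN-1t[NDNN] animals (log2 difference 1.74, SE 0.31, edgeR adjusted p = 0.0111), with no overlap. Nuclear hormone receptors had 2 higher and 9 lower of 192, from *nhr-67* at 0.89 and *nhr-228* at 0.71 to *nhr-234* at -1.28, and neuropeptide and insulin genes 4 higher and 0 lower of 110, led by *ins-37* at 1.39.

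Several stress and housekeeping families gave few calls. Cytosolic chaperones gave 1 call of 19, *hsp-12.6* at 0.83, and chaperones of the endoplasmic reticulum and mitochondria 0 of 17 with a median of -0.29. Ribosomal protein genes had a median of -0.043 over 78 genes, with the 2 exceptions *rpl-42* at 1.36 and *rpl-11.1* at 0.67. Lipase and lipid-binding genes gave *lipl-3* at 0.70 and *lbp-8* at -1.14 of 16, metal response genes 0 of 7 and *abu* and *pqn* genes 0 of 57.

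**Figure D5:**
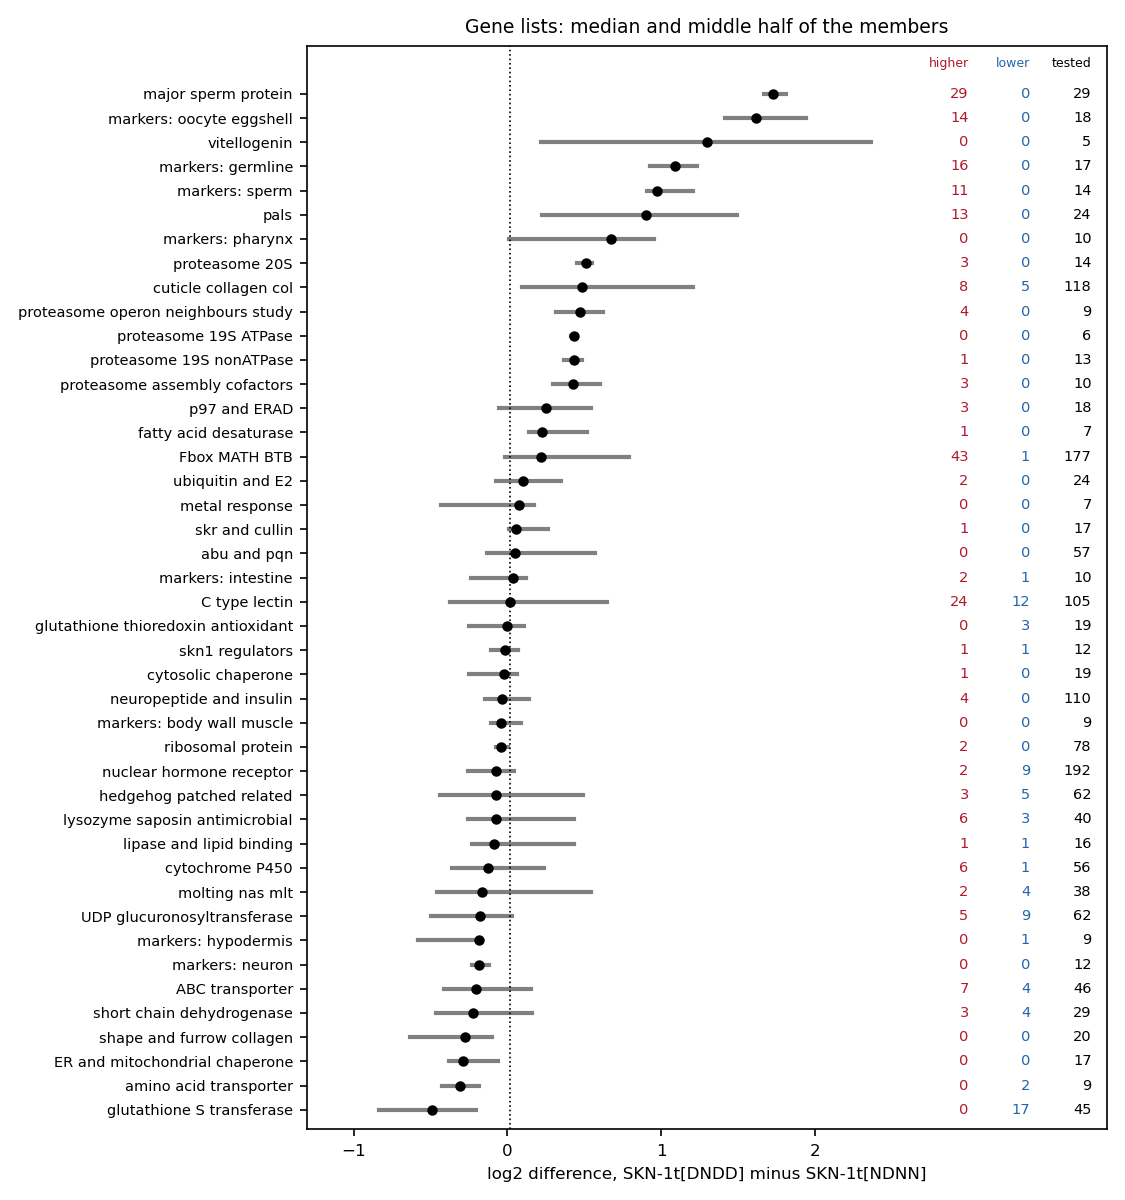
Median log2 difference (black point) and the range between the quartiles of the members (grey bar) of each gene list, with the numbers of members higher (red) and lower (blue) by the 1.5-fold rule and the number tested at the right. The dotted line is the median of all genes tested, 0.0153. Sperm, oocyte and germline lists are among the top 5 with the vitellogenins, proteasome lists at 0.43 to 0.51 and glutathione S-transferases at the bottom at -0.49.

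The size of the difference was also compared between replicates 1 and 2 and replicates 3 and 4, which stand apart. By edgeR's test of the interaction between strain and replicate set 0 genes passed at an adjusted p below 0.05, with 1567 of 14492 at an unadjusted p below 0.05, while DESeq2 called 277. Glutathione S-transferases had medians of -0.30 (replicates 1 and 2) and -0.68 (replicates 3 and 4), and proteasome subunits 0.53 and 0.38. Used alone, replicates 1 and 2 gave 27 higher and 10 lower genes and replicates 3 and 4 gave 1332 and 286.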

How the data were processed

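RNA of whole L4 animals was sequenced as stranded mRNA libraries, paired-end, in one pool of 16. Per the submitters' processing notes and the study's methods, reads were checked with FastQC 0.11.9 and aligned to WBcel235 with STAR 2.7.7a. The authors deposited raw gene-level read counts, and no other values were used. The deposited gene lengths were not used. Whether counting used strand is not given in the sources used here, so genes that overlap another on the opposite strand are less certain.

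The 8 samples were grouped by their labels and fitted with edgeR 4.0.16 in R 4.3.3 (filterByExpr at 10 counts per sample and 15 in all, TMM, glmQLFit with legacy quasi-dispersions, glmQLFTest, replicate number as a block, Benjamini-Hochberg adjustment). The SE is the size of the log2 difference over the root of F. Printed CPM use TMM factors over all 16 samples, and pair differences a prior count of 2. DESeq2 1.42.0 was an alternative. Tables and figures were made with Python 3.11.15, pandas 2.3.3, numpy 2.4.6 and matplotlib 3.10.9. The fits were tested on simulated data.

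The replicate numbers come from the labels. After the group means were removed, log2 CPM of same-numbered samples correlated across genes at 0.52 to 0.80 (mean 0.65), and of others at -0.77 to 0.63. Every same-numbered pair was over 0.1, and the numbers were taken as pairs. Some samples of unlike number were over 0.1 as well, so this cannot tell whether the numbers mark true pairs. Much of the correlation lies between replicates 1 and 2 and replicates 3 and 4, since SKN-1t[DNDD] replicate 1 correlated at 0.61 with SKN-1t[NDNN] replicate 2 and at 0.52 with replicate 1. Chi-square per degree of freedom between replicates of a strain was 21.0 to 163, so the spread between samples, and not depth, sets the precision.

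Genes were named by a rule: *skn-1*, the 10 largest and 10 smallest differences among called genes with at least 1 CPM and no overlap, up to 3 members of each list in each direction past 1.5-fold or else the member with the smallest p, and all proteasome subunits. Genes called without the block or by glmTreat, *gst-4*, *png-1*, *sel-1*, *sel-11*, *ufd-1*, *ufd-3*, *ubxn-6*, *npl-4.1*, *cdc-48.1* and the genomic neighbours in the closing section were added after their values were seen. Members and lists were chosen with earlier results of these data known. Coordinates are from the Ensembl annotation of WBcel235, which holds 19066 of the 19122 gene IDs.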

Additional observations from a re-analysis of the deposited data

Results flagged for a closer look

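In 15 of 372 groups of 4 samples (186 genes in each strain) 1 sample stood far from the other 3, 5 times in SKN-1t[DNDD] and 10 times in SKN-1t[NDNN], where chance gives about 1 in 20. Replicate 3 of SKN-1t[NDNN] was high for 3 collagen genes, with 18.3 CPM of *col-137* (others 0.236 to 0.764), 6.75 CPM of *col-62* (others 0.0322 to 0.169) and 6.09 CPM of *col-7* (others 0 to 0.133). The same sample was low for 3 proteasome subunits, with 323 CPM of *rpn-2* (others 406 to 422), 167 CPM of *rpn-6.1* (others 200 to 205) and 287 CPM of *rpt-5* (others 348 to 353). In SKN-1t[NDNN] replicate 1, *pbs-3* was at 408 CPM (others 369 to 375), *prdx-2* at 2203 CPM (others 2085 to 2104) and *pals-14* at 0.0675 CPM (others 0.277 to 0.299). In SKN-1t[NDNN] replicate 2, *asp-12* was at 60.02 CPM (others 51.3 to 52.6). In SKN-1t[DNDD] replicate 3, T26H5.4 was at 4.07 CPM (others 1.62 to 1.97), *grl-14* at 2.09 CPM (others 2.71 to 2.8) and *ufd-3* at 164 CPM (others 206 to 214). *spp-4* was at 6.56 CPM in SKN-1t[DNDD] replicate 2 (others 7.37 to 7.53), and *hsp-12.6* at 1.71 CPM in SKN-1t[DNDD] replicate 4 (others 2.32 to 2.37).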

How the results depend on the processing

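All estimates rest on 4 samples a strain, with 3 residual degrees of freedom under the replicate block and 6 without it. The 900 higher, 61 lower and 4 proteasome subunit calls became 5, 3 and 0 with no replicate block, that is, without the pairing of samples. A single fit of all 16 samples gave 398 higher genes with the block, 354 of them shared, and 19 higher and 19 lower without it. It gave 4 subunits with and without the block. Leaving out 1 replicate or 1 sample gave 0 to 967 higher genes, 0 to 53 lower genes and 2 to 8 subunits. Under the block, leaving out 1 sample also sets its partner aside. Replicates 1 and 2 alone gave 27, 10 and 12, and replicates 3 and 4 alone gave 286 lower genes and 1 subunit. Other cutoffs gave 1 higher and 1 lower gene (glmTreat), 2109 and 392 (1.5-fold) and 2572 and 1221 (adjusted p below 0.05), and for the subunits 32 at an adjusted p below 0.05 and 0 by the 2-fold rule. Requiring no overlap, a choice made after seeing the data, left 69 higher genes. The *skn-1* difference passed with -0.25 in all 16 samples with the block and -0.24 by DESeq2. The interaction gave 277 genes by DESeq2 and 1567 at an unadjusted p below 0.05, against 0. Under RLE or upper-quartile scaling, other filters, newer quasi-dispersions, robust estimation and DESeq2, counts stayed within 1.5 times (892 to 1311 higher, 54 to 84 lower), and no named gene changed direction under an alternative in which it could be fitted. Low genes such as *col-7*, *col-62* and *col-137* were not tested in replicates 1 and 2 alone. The cause of these shifts was not tested.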

Other observations

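Called genes that did not overlap between the strains sometimes lay next to each other in the genome. Of 122 such genes 23 had a neighbour called in the same direction with a start within 30000 bases, in 9 clusters, 7 higher and 2 lower in SKN-1t[DNDD]. How many such neighbours other genes have was not tested. The longest cluster was on chromosome IV, where 5 genes with starts between 12918556 and 12976303 were lower in SKN-1t[DNDD]. Of the 12 genes tested in that span 11 had a negative difference, but the 5 called genes set the span and are among the 11. Over all 14492 genes tested, 7505 had a positive difference. The 5 were C32H11.3 at -1.5, C32H11.4 at -1.55, *dod-24* at -1.07, F55G11.2 at -1.70 and *dod-17* at -1.41. The *dod* genes are named for lying downstream of the FOXO factor DAF-16. The gene *dod-24* had 2756, 2815, 1948 and 1581 CPM in SKN-1t[DNDD] animals, against 5332, 5255, 4589 and 3795 CPM in SKN-1t[NDNN] animals, and 188 CPM on average in the wild type. On chromosome V, C36C5.12, C36C5.14 and C36C5.15 (starts between 3158404 and 3167968) were higher by 1.20, 1.41 and 1.97, and C36C5.15 had 6.05, 11.33, 11.6 and 5.66 CPM in SKN-1t[DNDD] animals, against 1.82, 2.54, 2.56 and 1.73 CPM in SKN-1t[NDNN] animals.

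Called genes were unevenly spread over the chromosomes. On X 20 of 2044 genes tested (0.978%) were higher by the 2-fold rule, against 8.84% on I, 8.18% on II, 4.91% on III, 9.52% on IV and 4.33% on V. Among the higher genes without overlap X held 11 of 2044 and V 23 of 2884, with 7 to 10 on each other autosome. The lower genes made up 0.0885% to 0.693% of those tested on each of the 6 chromosomes.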
